A study of Mus musculus with 8 samples.

Results

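In mouse embryonic fibroblasts (MEF), cultured connective tissue cells of the embryo, 343 of the 14185 H3K9me3 peaks called in wild-type (WT) cells on chromosomes 1 to 19 shared at least 1 bp with an H3K9me3 peak called in cells labelled KAP1 KO. The full WT list, with chromosome X, Y and unplaced sequence, held 14596 peaks. The members were thus selected on the peak calls of these 2 lists. The 343 peaks are called kept here, and the other 13842 WT peaks on these chromosomes, for which no KO peak was called, are called lost. The groups were KAP1 KO MEF, profiled by chromatin immunoprecipitation and sequencing (ChIP-seq) for H3K9me3 and for H4K20me3, and WT MEF, profiled for H3K9me3, H4K20me3 and KAP1, with 1 library each. How KAP1 was removed, and from how many embryos or cultures the cells came, is not stated in the labels, and the absence of KAP1 in the KO cells could not be checked from these lists.

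H3K9me3 is a histone mark of silent chromatin. KAP1 (TRIM28), a corepressor, is brought to DNA by KRAB zinc finger proteins and recruits the methyltransferase SETDB1, which places H3K9me3 there. Other enzymes, among them the SUV39H methyltransferases of pericentromeric heterochromatin, place the same mark without KAP1. H4K20me3 often follows H3K9me3, because the SUV420H enzymes that place it are recruited through the H3K9me3 reader HP1. The comparison asked what H3K9me3 peaks that were still called in KO cells have in common, next to lost peaks of like length.

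The kept share of 2.42% (exact 95% interval 2.17 to 2.68%) is what the rule selects and has no test. Each group had 1 library and hence no replicate error, so intervals cover counting error over peaks alone, and no difference below was tested. Read depth is unknown, because the files hold peaks and scores without counts. An absent peak means that none was called. Coordinates are those of mouse build mm9, counted from 1, and were not matched to genes because no annotation of that build was used here.

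Most kept peaks met their KO peak over most of their length. The median kept peak was covered to 92.6%, 266 were covered over at least 50% and 119 over their whole length. At the edge of the rule, 17 shared under 100 bp. The smallest overlap was 8 bp of a 944 bp WT peak on chromosome 5 (137626519 to 137627462), followed by 15 bp of a 311 bp peak on chromosome 3 (125640796 to 125641106) and 16 bp of a 463 bp peak on chromosome 4 (3104706 to 3105168). Just outside the rule, lost peaks on chromosome 5 (25219291 to 25219819) and chromosome 17 (3028296 to 3029412) lay 12 and 15 bp from a KO peak. In all, 113 lost peaks (0.816%) had a KO peak within 1000 bp, so few of the lost peaks were near misses. Against the number kept they were not few, since counting them as kept would raise it from 343 to 456.

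Kept peaks were long. Their median length was 729 bp (quartiles 480 and 1244.5 bp, range 173 to 15085 bp), against 455 bp for lost peaks (quartiles 351 and 641 bp, range 164 to 12044 bp). They held 0.415 Mb, or 4.87% of the autosomal H3K9me3 length in WT. The share kept was 0.951% among WT peaks shorter than 400 bp, 1.90% from 400 to under 600 bp and 2.997% from 600 to under 1000 bp. It was 6.93% from 1000 to under 2000 bp, 14.4% from 2000 to under 4000 bp and 23.0% (14 of 61) at 4000 bp or more. Long peaks offer more bases to meet a KO peak, so many comparisons with lost peaks below are given by length class, or weighted to the kept lengths. Others, such as list position and nearest neighbours by gap, were not adjusted for length.

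To compare width between genotypes, WT and KO peaks that share bases were joined into 297 loci. Of these, 247 joined 1 KO and 1 WT peak, 23 held several KO peaks and 37 held several WT peaks. Summed peak width over the loci was 388567 bp in KO and 414994 bp in WT. The median locus was 717 bp wide in KO and 802 bp in WT. The KO peak was the wider one at 159 loci, the narrower one at 136 and equal at 2, and the median log2 ratio of KO to WT width was 0.04 (quartiles -0.54 and 0.43). The sign of this median depends on the setting. It was -0.23 when the WT list was cut to as many top-scoring peaks as the KO list holds, and -0.17 with peaks within 5 kb merged.

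The near-zero median covers loci that differed widely. At 114 loci (38.4%) the KO to WT width ratio lay from 0.8 to 1.25, at 38 loci the KO width was at most 50% of the WT width, and at 30 loci the WT width was at most 50% of the KO width. Both ends of the KO peak lay within 100 bp of the WT ends at 69 loci (23.2%), and the median distance was 132 bp between starts and 148 bp between ends. The KO span lay inside the WT span at 76 loci and reached to or past both of its ends at 92.

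**Figure D1:**
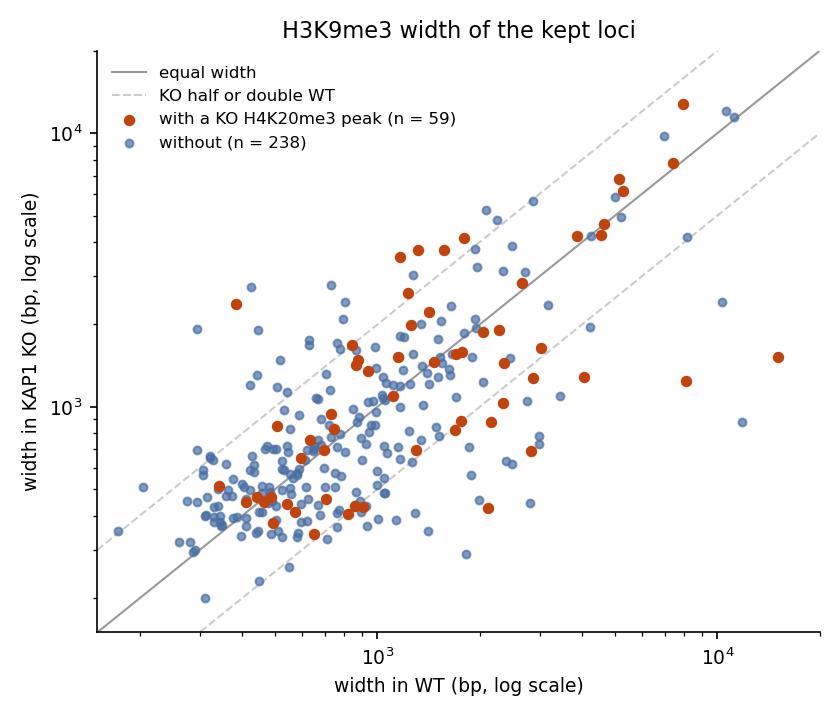
Summed H3K9me3 peak width per kept locus in KAP1 KO (y axis, bp, log scale) against WT (x axis, bp, log scale), 1 point per locus, n = 297. Points scatter on both sides of the line of equal width, with 38 loci at or under the lower dashed line and 30 at or above the upper one. Red points mark the 59 loci that meet a KO H4K20me3 peak.

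The KO to WT width ratio ran in opposite directions along the 2 rankings. Scores order peaks within a list, and ranks are given among the 2862 KO and 14185 WT peaks of chromosomes 1 to 19, with rank 1 the highest score. At the 93 loci in the top 10% of the WT list the median log2 ratio of KO to WT width was -0.39, and 67 were narrower in KO. At the 122 loci between 10 and 50% of the WT list it was 0.01. At the 82 loci in the lower 50% it was 0.41, with 71 wider in KO. By KO rank the order was the reverse. The median was 0.14 at the 116 loci in the top 10% of the KO list, with 75 wider in KO, and -0.19 at the 60 loci in its lower 50%, with 38 narrower. Over the kept loci score grew with width in both genotypes. Loci that were weak in WT had to be called in KO to enter, so these values are a description and were not tested.

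The 5 loci with the narrowest KO peaks relative to WT, among those at least 1000 bp wide in WT, were broad WT blocks in which a short KO peak was called. On chromosome 4 (146551451 to 146563260), 882 bp were called in KO, against 11810 bp in WT. A second chromosome 4 block (145709101 to 145724185) held 1521 bp in KO and 15085 bp in WT, the longest WT peak of the autosomes. In another chromosome 4 block (145422680 to 145430752), the width was 1248 bp in KO and 8073 bp in WT. These 3 lie between 145 and 147 Mb, and in each the KO peak lay wholly inside the WT peak. The remaining 2 were on chromosome 2 (174123453 to 174126262), with 444 bp in KO and 2810 bp in WT, and chromosome 3 (93249455 to 93251282), with 291 bp in KO and 1828 bp in WT.

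At the other end, 2 of the 5 loci with the widest KO peaks relative to WT lay close together on chromosome 7. The first (67023907 to 67027444) was 3538 bp wide in KO and 1169 bp in WT, and the second (67002775 to 67005809) was 3035 bp in KO and 1274 bp in WT. Another 2 lay on chromosome 8, at 57987379 to 57991112 with 3734 bp in KO and 1313 bp in WT, and at 74343029 to 74348386 with 5224 bp in KO and 2086 bp in WT. The fifth, on chromosome 10 (120064287 to 120068034), was 3748 bp in KO and 1575 bp in WT. None of these 5 loci met a KAP1 peak, and 3 of them met a KO H4K20me3 peak. Among all 297 kept loci, 10 met a KAP1 peak and 59 (19.9%) met a KO H4K20me3 peak. With only 5 loci, the absence of KAP1 is not read as a trait of wide KO peaks, and neither count was tested.

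Kept peaks stood high within both lists. KO peaks on a WT peak had a median position 15.8% from the top of the KO list (quartiles 4.77 and 40.6%), and kept WT peaks 25.7% from the top of the WT list (quartiles 7.62 and 55.9%). Lost WT peaks had a median of 50.5%. These positions were not adjusted for length. At like length, median scores of kept and lost WT peaks lay close together under 4000 bp. From 4000 bp the kept median was the lower one, as given below. Among the 50 highest-scoring peaks of each list, 41 of the KO peaks (82.0%) met a WT peak and 12 of the WT peaks (24.0%) met a KO peak, where 11.3% of all KO and 2.42% of all WT peaks did. Over the next 50 ranks the shares were 46.0% in KO and 22.0% in WT. These shares use the same contrast as the rule and are given as a description, and no change in level is read from ranks in lists of different length.

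The order of loci differed between the lists. Spearman's rho between KO and WT rank over the 297 loci was 0.377, given without a test because loci share 2 libraries and a common threshold. The top 10% of both lists shared 59 loci. Another 19 were in the top 10% of the KO list and the lower 50% of the WT list, and 5 the reverse. Median log2 ratios of KO to WT width were -0.08 in the first group, 0.68 in the second and -1.55 in the third, so rank and width went together. Over the 297 loci score grew with width in both genotypes, with a rho of -0.717 between rank number and width in KO and -0.688 in WT. Here the width of a locus is summed over its peaks and its rank is that of its best peak, which itself ties the 2 together.

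**Figure D2:**
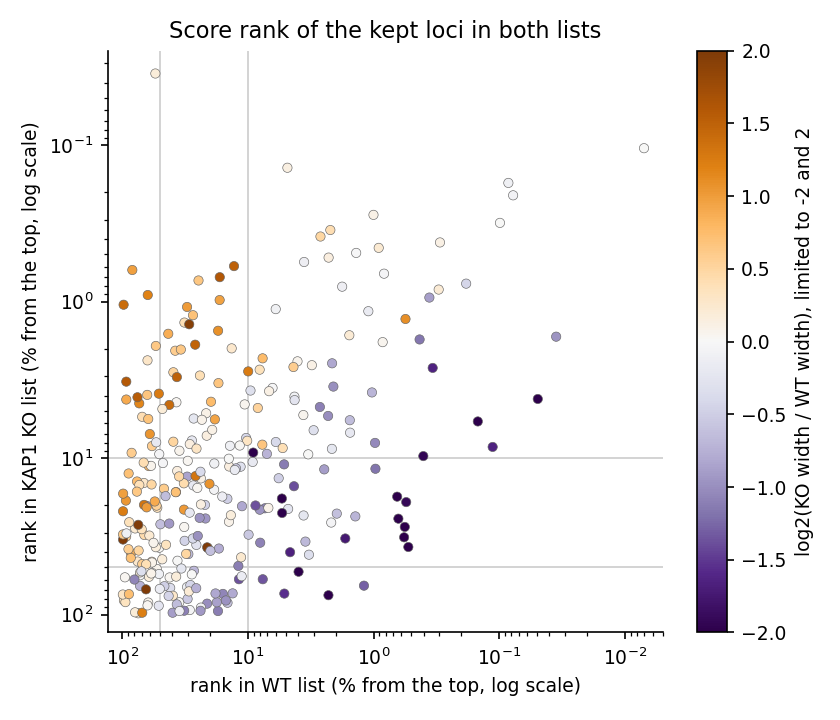
Rank of each kept locus in the KAP1 KO list (y axis) against the WT list (x axis), both as percent from the top on log scales that place the highest ranks at the top and on the right, n = 297. Colour gives log2 of KO over WT width, limited to -2 and 2, and grey lines mark 10% and 50%. The 59 loci in the top 10% of both lists fill the upper right part, and loci with narrow KO peaks (purple) lie below it.

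Among the loci with the highest scores, a compact set was nearly the same in both genotypes. A stretch of chromosome 10 held 3 loci in a row. The first (7229218 to 7230612) was 1333 bp wide in KO with rank 6 and 1395 bp in WT with rank 11. The second (7230779 to 7235485) was 4662 bp in KO with rank 3 and 4640 bp in WT, where it shared rank 1 with 1 other peak. The third (7236019 to 7237223) was 1205 bp in KO with rank 12 and 1114 bp in WT with rank 42. All 3 of these WT peaks were covered to over 95% by their KO peaks.

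A locus on chromosome 1 (188553441 to 188558018) was 4233 bp in KO with rank 5 and 4551 bp in WT with rank 12. Another on chromosome 10 (22190064 to 22191559) was 1464 bp in KO with rank 9 and 1463 bp in WT with rank 14. A locus on chromosome 13 (13845062 to 13847904) was 2843 bp in KO with rank 8 and 2661 bp in WT with rank 142. These 3 loci, with the middle one on chromosome 10, each met an H4K20me3 peak in KO and in WT.

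The highest-scoring KO locus lay on chromosome 8 (56197051 to 56209070), 12016 bp wide in KO and 10631 bp in WT. Its WT score was 70.77, rank 7717, so a like width went with a place near the top of the KO list and in the lower 50% of the WT list. A locus on chromosome 15 (91736818 to 91741042) was a single KO peak of 4225 bp with rank 4 over 4 WT peaks that summed to 3866 bp, the best with rank 687. On chromosome 18 (3113780 to 3120666), 6818 bp in KO, rank 10, stood over 4 WT peaks of 5131 bp, the best with rank 313. The chromosome 15 and 18 loci were in the top 10% of both lists, at 4.84 and 2.21% from the top in WT.

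At the remaining high-scoring WT loci the KO peak was the narrower one. On chromosome 12 (20232477 to 20240604) the width was 4182 bp in KO, rank 48, and 8128 bp in WT, rank 5. On chromosome 6 (149273755 to 149277795) it was 1283 bp in KO, rank 243, and 4041 bp in WT, rank 16. A chromosome 4 block (146640067 to 146650448) had 2422 bp in KO, rank 167, and 10314 bp in WT, rank 21. On chromosome 17 (66309570 to 66312937) there were 2354 bp in KO, rank 22, and 3184 bp in WT, rank 26. In the same order, 51.5, 31.7, 22.8 and 68.2% of the WT length was covered in KO.

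Kept peaks lay next to other kept peaks. Another kept peak lay within 10 kb of 145 of the 343 kept peaks (42.3%, interval 37.0 to 47.7%) and of 242 of the 13842 lost peaks (1.75%, interval 1.54 to 1.98%), or 3.01% of lost peaks weighted to the kept lengths. Any other WT peak lay within 10 kb of 64.1% of kept peaks (interval 58.8 to 69.2%) and 61.9% of lost peaks of like length, a difference of 2.22 percentage points with a range of -3.11 to 7.3. Weighted to score deciles in place of length, the lost share was 58.7% and the difference 5.41 points, with a range of 0.0839 to 10.5 that leaves out 0. Weighted to length class and score decile together, the difference was 1.79 points, with a range of -3.53 to 6.87 that holds 0. These ranges come from the interval of the kept share alone. Some neighbouring kept peaks shared a KO peak. Of the 136 kept peaks whose nearest WT neighbour was also kept, 77 lay under the same KO peak as that neighbour and 59 under a different one. Counted as loci, 75 of 297 (25.3%, interval 20.4 to 30.6%) had another kept locus within 10 kb.

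Neighbours were most alike within 10 kb. With a gap under 300 bp, the nearest WT neighbour was kept for 65.4% of kept and 1.44% of lost peaks. At 300 to 1000 bp the shares were 55.4% and 1.26%, and at 1000 to 10000 bp 42.1% and 1.41%. From 10000 to 100000 bp they were 8.96% and 1.76%, and beyond that 8.93% and 2.69%. Intervals of kept and lost peaks overlapped in the last class only, but they treat neighbouring peaks as independent. A KO peak that spans several close WT peaks makes all of them kept. This held for 77 of the 136 kept peaks whose nearest neighbour was kept. The gap classes were not split by it, so the fall with gap is a description and was not tested.

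**Figure D3:**
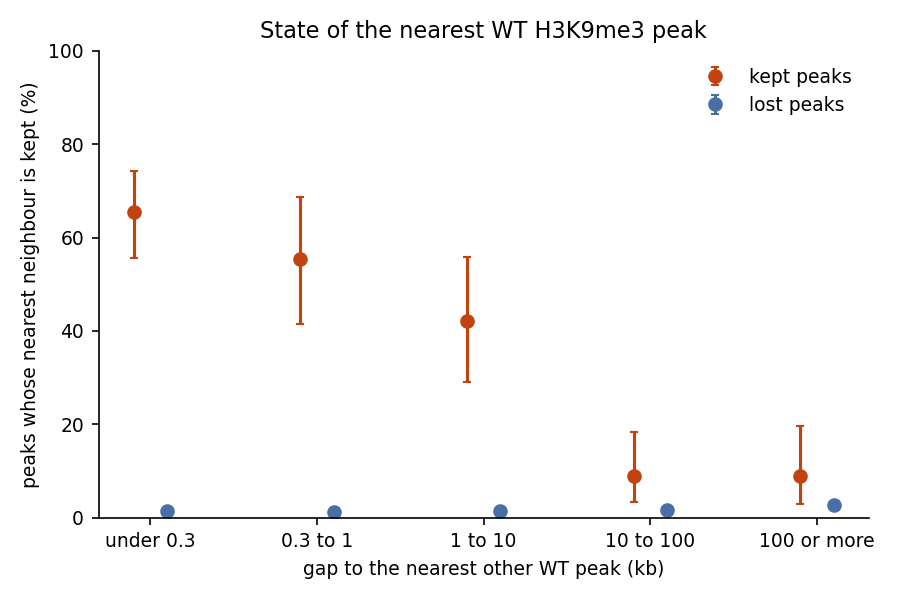
Share of kept (red) and lost (blue) WT H3K9me3 peaks whose nearest other WT peak was kept in KAP1 KO (y axis, percent), by the gap to that neighbour (x axis, kb). Points are shares and bars exact 95% intervals over peaks, and kept neighbours under the same KO peak are included. The kept shares are 65.4, 55.4 and 42.1% up to 10 kb and 8.96 and 8.93% beyond, and lost shares lie between 1.26 and 2.69%.

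Joined at 10 kb, the kept peaks formed 248 groups, of which 198 held 1 kept peak, 32 held 2 and 18 held 3 or more, with 81 peaks in the last class. Domains of WT peaks joined in the same way kept 1.95% of their peaks when they held 1 WT peak and 4.74% when they held over 10. Between these sizes the share was 2.03% with 2 WT peaks, 3.14% with 3 to 5 and 2.71% with 6 to 10. The 4.74% rests on 1 of 29 domains, which kept all of its 16 peaks. Without that domain, which was left out after its values were seen, 20 of 744 peaks (2.69%) were kept in domains of over 10. Kept peaks were thus scattered over many places, with a few groups of several.

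The group with the most kept peaks was a stretch of 36241 bp on chromosome 7 (67004040 to 67040280) in which all 16 WT peaks were kept. The WT peaks there were 361 to 2774 bp long and of modest score, from 51.73 to 370.08. In KO the stretch was covered by peaks over more of its length. Its 10 loci were all wider in KO, with 27333 bp in KO and 17633 bp in WT, and the best KO rank was 11, where the best WT rank was 375. The largest locus (67006316 to 67016060) was a single KO peak of 9745 bp over 4 WT peaks that summed to 6947 bp. Of the 16 peaks, 1 met a KO H4K20me3 peak, none met a WT H4K20me3 peak, and 2 met a KAP1 peak. In the same order, the shares over all kept peaks were 20.4, 21.6 and 3.21%. Over all autosomal WT H3K9me3 peaks they were 1.04, 8.88 and 1.30%. The 16 peaks are neighbours in 1 stretch, and no difference from these shares was tested.

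The other windows of 1 Mb among the 5 with most kept peaks were less complete. Full retention was not particular to the chromosome 7 stretch, since the window from 12 to 13 Mb of chromosome 7 kept 5 of 5. Among windows with 5 kept peaks, the share ran from 1.79% (146 to 147 Mb of chromosome 4) to 100%. The window from 3 to 4 Mb of chromosome 4 kept 8 of 18 WT peaks (44.4%), that from 61 to 62 Mb of the same chromosome kept 7 of 25 (28.0%), and that from 3 to 4 Mb of chromosome 17 kept 6 of 12. The window from 145 to 146 Mb of chromosome 4, in the region of the broad blocks above, kept 6 of 232 (2.59%), close to the 2.42% of all autosomal peaks. A high number of kept peaks there went with a very high number of WT peaks.

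The windows that begin at 3 Mb lie at the centromeric end of their chromosomes, where the first WT peak of the autosomes starts at position 3000000. Of the WT peaks that start below 4 Mb, 32 of 198 were kept (16.2%, interval 11.3 to 22.0%), and of those further along 311 of 13987 (2.22%, interval 1.99 to 2.48%). These shares were not adjusted for length. Seen from the kept side, 9.33% of kept peaks started below 4 Mb, and 1.39% of lost peaks weighted to the kept lengths. The intervals treat neighbouring peaks as independent, although 7 of the kept chromosome 4 peaks formed a group of 6042 bp. The 32 lay on 8 chromosomes, with 8 on chromosome 4, 6 on chromosome 17, 4 each on chromosomes 3, 6 and 18, 3 on chromosome 16, 2 on chromosome 12 and 1 on chromosome 11. Of their 25 loci, 19 were wider in KO, with a median log2 ratio of KO to WT width of 0.39. None met a KAP1 peak, and 11 of the 32 peaks met a KO H4K20me3 peak. Over all kept peaks the shares were 3.21% for KAP1 and 20.4% for KO H4K20me3. Over all autosomal WT H3K9me3 peaks they were 1.30 and 1.04%. With so few peaks, the absence of KAP1 is not read as a trait of this end.

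Between chromosomes, the share kept ran from 1.44% on chromosome 13 to 8.52% on chromosome 7 (27 of 317, interval 5.69 to 12.2%). At the autosomal share of each length class, chromosome 7 would have kept 6.27 peaks. Without its window at 67 Mb it kept 11 of 301 (3.65%). Chromosome 12 kept 16 peaks, with 8.64 by length, and chromosome 18 kept 7, with 2.46 by length. On the other 16 autosomes, the interval of the share held the value given by peak length.

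**Figure D4:**
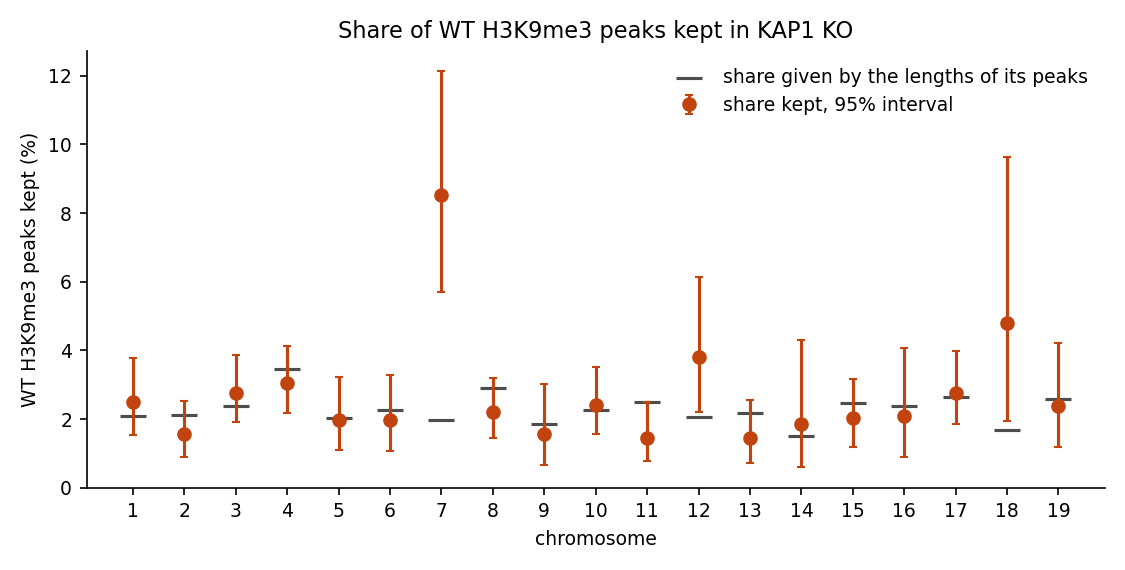
Share of WT H3K9me3 peaks kept in KAP1 KO (y axis, percent) for chromosomes 1 to 19 (x axis). Points are shares with exact 95% intervals over peaks, and grey dashes give the share each chromosome would have if its peaks were kept at the autosomal share of their length class. Chromosome 7, at 8.52%, stands above its dash, and so do chromosomes 12 and 18.

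H4K20me3, measured in libraries that the rule did not use, was found in KO cells at many kept peaks and at few lost ones. A KO H4K20me3 peak met 70 of the 343 kept peaks (20.4%, interval 16.3 to 25.1%) and 78 of the 13842 lost peaks (0.564%, interval 0.446 to 0.703%), where 1.04% of all autosomal WT H3K9me3 peaks had one. Weighted to the lengths of the kept peaks, the share of lost peaks was 1.39%, and weighted to both length class and score decile it was 1.91%. The kept share was the higher one in each of the 6 length classes, from 8.00% of kept and 0.173% of lost peaks under 400 bp to 7 of 14 kept and 4.26% of lost peaks of at least 4000 bp. The KO H3K9me3 and KO H4K20me3 lists come from the same genotype, and the labels give 1 input sample for the histone marks of each genotype.

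In WT cells the 2 classes were closer. A WT H4K20me3 peak met 74 kept peaks (21.6%, interval 17.3 to 26.3%) and 1186 lost peaks (8.57%), where 8.88% of all had one, and the lost share weighted to the kept lengths was 16.4%. The difference of 5.13 percentage points had a range of 0.895 to 9.87 from the interval of the kept share. By length class, intervals of kept and lost peaks overlapped in all 6 classes.

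**Figure D5:**
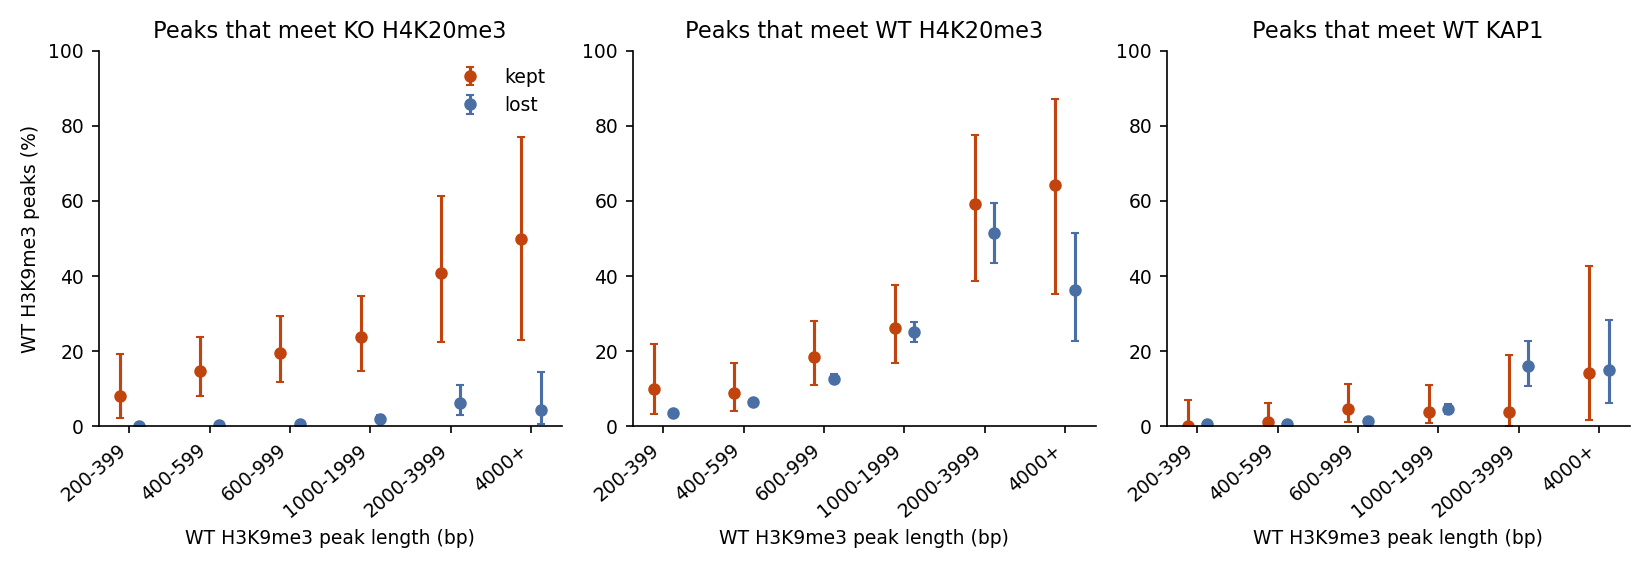
Share of kept (red) and lost (blue) WT H3K9me3 peaks (y axis, percent) that meet a KO H4K20me3 peak, a WT H4K20me3 peak or a WT KAP1 peak (left to right), by length of the WT H3K9me3 peak (x axis, bp). Points are shares and bars exact 95% intervals over peaks. Kept and lost peaks stand apart for KO H4K20me3 in every class, 7 of 14 and 4.26% in the longest, and their bars overlap in all classes for WT H4K20me3.

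Seen by genotype, 44 kept peaks met H4K20me3 in KO and in WT, 26 in KO alone, 30 in WT alone and 243 in neither. Among lost peaks the numbers were 50, 28, 1136 and 12628. Of the peaks with H4K20me3 in WT, 44 of 74 kept peaks (59.5%, interval 47.4 to 70.7%) and 50 of 1186 lost peaks (4.22%, interval 3.15 to 5.52%) also had it in KO. These intervals did not overlap, and the shares were not adjusted for length. Most kept peaks, 70.8%, carried no H4K20me3 peak in either genotype.

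Counted from the H4K20me3 side, 41 of the 77 WT H4K20me3 peaks on a kept H3K9me3 peak were called in KO (53.2%, interval 41.5 to 64.7%), and 48 of the 1113 on lost H3K9me3 peaks alone (4.31%, interval 3.20 to 5.68%), where 65.6% of all autosomal WT H4K20me3 peaks were. Weighted to the lengths of the H4K20me3 peaks on kept H3K9me3, the share on lost peaks was 6.84%. Off H3K9me3 it was 72.5%, above the interval on kept peaks. Where H4K20me3 was called in both genotypes, its median width was lower in KO on H3K9me3, kept or lost. The median log2 ratio of KO to WT width was -0.24 at 39 H4K20me3 loci on kept H3K9me3 (26 narrower in KO), -0.58 at 46 on lost H3K9me3 (39 narrower in KO) and 0.01 at 7005 elsewhere.

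KO peaks that met a WT peak were also set beside KO peaks that did not. A KO H4K20me3 peak met 58 of the 324 KO H3K9me3 peaks at WT positions (17.9%, interval 13.9 to 22.5%) and 22 of the 2538 at new positions (0.867%, interval 0.544 to 1.31%), or 1.49% of these weighted to the lengths of the first, where 2.80% of all KO peaks had one. KO peaks at WT positions had a median length of 699 bp, and those at new positions 431.5 bp. Grouping was less different, since another KO peak lay within 10 kb of 47.5% and 40.7% of them.

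KAP1 peaks were rare at kept as at lost peaks. A WT KAP1 peak met 11 kept peaks (3.21%, interval 1.61 to 5.67%) and 173 lost peaks (1.25%, interval 1.07 to 1.45%), where 1.30% of all had one. Weighted to the kept lengths, the lost share was 3.47%, inside the interval of the kept share, so at this number of peaks no difference was detectable. The difference, kept minus lost, was -0.263 percentage points, with a range of -1.86 to 2.2 from the interval of the kept share. The order varied with length. From 600 to under 1000 bp, 4 of 87 kept (4.60%) and 41 of 2816 lost peaks (1.46%) met KAP1, and from 2000 to under 4000 bp, 1 of 27 kept (3.70%) and 26 of 161 lost peaks (16.1%). Intervals of kept and lost peaks overlapped in all 6 classes.

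The 11 kept peaks with KAP1 fell on 10 loci. The highest KAP1 score, 1014.36, lay on chromosome 9 (89774215 to 89775000) and touched 2 kept peaks under a single KO locus of 1521 bp, rank 190. The next, with a KAP1 score of 157.74, lay on chromosome 13 at a 707 bp WT peak (25142001 to 25142707) whose KO peak was 461 bp. The chromosome 12 and chromosome 4 blocks named above (20232477 to 20240604 and 145422680 to 145430752) had KAP1 scores of 115.82 and 66.74. The KO peak of 1248 bp in the chromosome 4 block ended at the same base as its KAP1 peak, 145427555. Over all 361 autosomal KAP1 peaks the median score was 96.62 (quartiles 63.57 and 189.57). The chromosome 9 peak had rank 14 among them, the other 9 KAP1 peaks on kept loci had ranks 112 to 358, and 6 of the 10 lay below the median.

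Of the rest, a chromosome 7 peak (12595651 to 12596395) stood out by its KO rank of 15, with 829 bp in KO and 745 bp in WT, H4K20me3 in both genotypes and a KAP1 score of 70.41. A peak on chromosome 8 (14306604 to 14307484) was 920 bp in KO and 881 bp in WT. Another on chromosome 13 (120277047 to 120278214) was 1189 bp in KO and 1168 bp in WT. Another 2 were part of the chromosome 7 group of 16, and the last was the narrowed chromosome 2 block (174123453 to 174126262), with a KAP1 score of 99.22. In 9 of the 11 peaks the KO peak itself met the KAP1 peak. The exceptions were the chromosome 2 block and 1 peak of the chromosome 7 group (67038099 to 67039011).

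Long peaks of high score were also found among the lost ones. The highest-scoring lost peak of at least 4000 bp lay on chromosome 2 (157379229 to 157390635), 11407 bp long, with KAP1 and WT H4K20me3 but no KO H4K20me3. It shared rank 1 of the WT list with the kept chromosome 10 locus named above. The highest of those from 2000 to under 4000 bp and from 1000 to under 2000 bp were neighbours on chromosome 12 (114013620 to 114017583 and 114017729 to 114019658), with ranks 10 and 25. Both met H4K20me3 in KO as well as in WT, although the nearest KO H3K9me3 peak was 443786 bp or more away. In the 5 length classes under 4000 bp, median scores of kept and lost peaks lay close together. The median score was 220.28 for kept and 249.21 for lost peaks from 1000 to under 2000 bp, and 598.98 for kept and 570.17 for lost peaks from 2000 to under 4000 bp. From 4000 bp it was 494.81 for the 14 kept and 804.38 for the 47 lost peaks.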

How the data were processed

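The submitters' processing notes name CASAVA 1.82 and Bowtie2 2.2.1, with MACS 1.4 for peaks, and build mm9. Neither the calling parameters nor the controls of the histone calls were stated there. The deposited lists of 5 ChIP libraries give a position and a score per peak. The score is the authors' own value, read here as a MACS score. It grows with depth and width and was used only to rank and filter within a list. The 3 input libraries were not used here, and depth is unknown.

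Positions are printed counting from 1. Overlap means at least 1 bp. Lost peaks were weighted to the kept peaks' shares of 6 length classes, with lower bounds of 200 (shorter peaks included), 400, 600, 1000, 2000 and 4000 bp. Python 3.11.15, numpy 2.4.6, pandas 2.3.3, scipy 1.17.1 (Clopper-Pearson intervals) and matplotlib 3.10.9 were used. The counting was tested on simulated data, and 40 list comparisons with bedtools 2.31.1 differed at 0 peaks. Named regions are the 10 loci with the highest score in each list, the 5 with the largest and smallest width ratio among loci of at least 1000 bp in WT, kept peaks with KAP1 (at most 15), the 5 windows of 1 Mb with most kept peaks, the 3 smallest overlaps and the highest-scoring lost peak of each class from 1000 bp. The 2 near misses just outside the rule and a few loci that recur across these sets were also named. Members and lists were chosen with earlier results of these data known. Neither genes nor sequences are given, because no mm9 genome was used.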

Additional observations from a re-analysis of the deposited data

How the results depend on the processing

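Of the alternative settings tried, a score cut-off, equal list length and overlap of both peaks changed the number of kept peaks most. It was 189 when at least 50% of both peaks had to be shared, 124 when only scores of 100 or more were used and 145 with as many WT as KO peaks, taken from the top, and 256 to 456 under the other settings. The share kept was 1.88% with at least 50% of the WT peak covered, 1.33% with 50% of both peaks, 3.21% with a KO peak within 1 kb, 2.76% for scores of 100 or more and 5.07% with equal numbers. With equal numbers, the kept minus lost difference was 27.6 percentage points for KO H4K20me3 and 12.3 for WT H4K20me3, which was 13.9 with peaks within 5 kb merged. The difference in having another WT peak close by was -3.48 percentage points at 100 kb. The share of WT H4K20me3 peaks on lost H3K9me3 that were called in KO was 7.17% with a distance of 1 kb and 12.2% with peaks within 5 kb merged. The causes of these shifts were not tested. The other settings moved shares and differences by less than their intervals, and the median width ratio stayed inside its quartiles under all of its settings. No difference whose interval left out 0 in the main setting changed sign. The difference in having another WT peak close by, whose main range held 0, was positive under some settings and negative under others. Leaving out the window on chromosome 7 or the peaks below 4 Mb, both chosen after the data were seen, gave differences of 19.7 and 17.5 percentage points for KO H4K20me3. The joint weighting by length and score was also added after the data were seen. No paired analysis was possible because each group has 1 library. The number of peaks limits the KAP1 comparison, which rests on 11 kept peaks.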
